A study of Pan troglodytes with 8 samples.

Results

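Chromatin accessibility was compared between neurons (N) and apical radial glia (aRG) sorted from chimpanzee cerebral organoids, over every region of the deposited count table that had a chimpanzee identifier, whatever its closest gene. These were 211348 of the 218080 rows, counted in 4 of the series' 8 libraries. Open chromatin was profiled in bulk with ATAC-seq, an assay that uses a transposase to cut and tag accessible DNA. Both groups came from organoids of SandraA, an established chimpanzee induced pluripotent stem cell line, collected at week 8 of culture within 3 days either way. The labels name no edited allele and no treatment that sets the groups apart. All organoids had the rho kinase inhibitor Y-27632 during early aggregation and B27 supplement with vitamin A later, and the cells went through a reversal of crosslinks as used for fixed cells. Cells were separated by fluorescence-activated sorting into aRG and BCL11B+ neurons, and how each gate was set is not described in the labels. Each group had 2 libraries, with 27883664 and 24994712 counts for aRG and 31593644 and 25221705 for N. All results rest on this 1 cell line, and the labels do not say whether libraries came from separate cultures, so p-values measure only the spread between these libraries, which may be technical.

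Apical radial glia are the neural stem cells of the ventricular wall of the developing cortex. They divide at the ventricle, keep a process to the outer surface, and make neurons either directly or through intermediate progenitors. As cells become neurons, factors of the SOX and HES families that hold the stem cell state give way to proneural and neuronal factors of the NEUROG and NEUROD families. Accessibility at promoters is shared by many cell types, whereas distal elements are known to be more specific to a cell type.

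The labels were checked at SOX2, a factor that maintains neural stem cells, and at NEUROD2, a factor of differentiating cortical neurons. The region over the SOX2 start (chr3:179797765-179799818, panTro6) had 74.4 and 67.9 CPM (read counts scaled to library depth) in the aRG libraries and 11.6 and 8.33 in the N libraries. Both aRG libraries lay above both N libraries, a log2 fold change of -2.83 ± 0.15 (SE) with an adjusted p of 4.9e-08 in edgeR's quasi-likelihood test. A region 3.16 kb from the start (chr3:179795561-179796420) fell further, from 38.1 and 28.1 CPM to 1.21 and 1.06 (log2 fold change -4.85 ± 0.24, adjusted p = 4.4e-08). The other regions closest to SOX2 moved little. One at 1.97 kb had a log2 fold change of -0.78 (adjusted p = 0.030, and 0.0596 to 0.171 under 5 alternatives), and one at 0.371 kb had 0.12 (adjusted p = 0.68).

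NEUROD2 had the opposite pattern. The region over its start (chr17:17140428-17141955) had 4.27 and 3.70 CPM in aRG and 39.1 and 45.6 in N (log2 fold change 3.41 ± 0.16, adjusted p = 4.2e-08). Of its 9 regions within 50 kb, 8 rose past 2-fold, which here means that the difference exceeded 2-fold at an adjusted p under 0.05. They included one 12.3 kb away (chr17:17153723-17154061) with 0.509 and 0.504 CPM in aRG and 9.50 and 8.09 in N. The 9th, 1.61 kb away, had 2.86 and 2.86 CPM in aRG and 2.33 and 3.10 in N, and the groups overlapped. BCL11B, the gene of the neuron label, differed little at its start (chr14:80217737-80218567), with 20.5 and 18.4 CPM in aRG and 21.5 and 21.2 in N (log2 fold change 0.13 ± 0.13, adjusted p = 0.40, and 0.41 with adjusted p = 0.011 when libraries were scaled on gene starts).

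**Figure D1:**
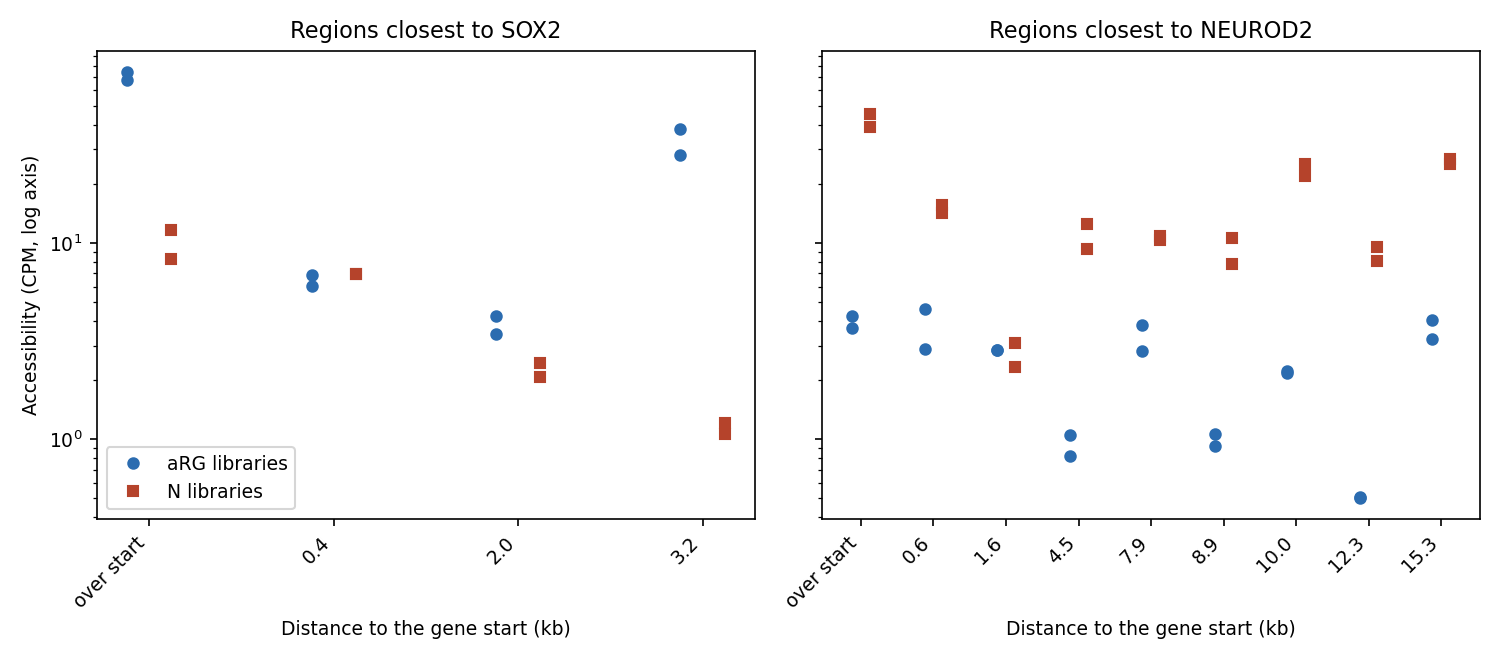
Accessibility in CPM (vertical log axis) of each region closest to SOX2 (left) and NEUROD2 (right), ordered by distance in kb to the gene start. Circles are the 2 aRG libraries and squares the 2 N libraries; over the start, SOX2 was at 74.4 and 67.9 CPM in aRG against 11.6 and 8.33 in N, and NEUROD2 at 4.27 and 3.70 against 39.1 and 45.6.

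Most of the tested regions differed between the groups. Of 198227 regions tested, 73830 (37.2%) rose in neurons and 62877 (31.7%) fell, 69% in all. Past 2-fold, 56184 (28.3%) rose and 41443 (20.9%) fell, 49.3% in all. The excess of risen regions depended on level and scaling. Among the 39646 regions with the highest mean level, 12.8% rose and 20.1% fell past 2-fold. With loess offsets, which follow mean level, 50.5% of all regions past 2-fold were higher. The N and aRG libraries did not overlap in 84.5% of regions. The differences were large: the median log2 fold change was 2.55 among risen and -2.05 among fallen regions, against 0.13 over all tested. The shares over all tested regions are the background for every count that follows. In bulk libraries, fewer cells with an open region and less opening per cell cannot be told apart.

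The deposited consensus peak lists, 1 for each population, were compared with the counts. Of regions that rose past 2-fold, 66.2% overlapped an interval of the N list and 5.58% one of the aRG list. Of those that fell past 2-fold, 76.8% overlapped the aRG list and 8.80% the N list. Of regions covered by both lists, 7.66% were higher and 8.95% lower past 2-fold. Another 78733 tested regions overlapped neither list. They held 18955 of the regions that rose past 2-fold and 9605 of those that fell. The peak lists come from the same libraries, so this overlap is a description and not a separate test.

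The differences lay mostly away from gene starts. Of 16146 tested regions over a gene start, 5.61% rose and 9.80% fell past 2-fold. The shares grew with distance, to 30.3% and 22.1% at 10 to 50 kb and 34.6% and 22.9% at 50 to 200 kb. Over starts of protein-coding genes, 1.88% rose and 7.06% fell, and over starts of other genes 12.4% and 14.8%. Gene-start regions also took a smaller share of the counts in neurons, at 33.6% and 33.7% in N against 37.3% and 38.3% in aRG.

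Gene-start regions are also the brightest and widest ones. Among the 39646 regions with the highest mean level, 1.87% of start regions rose and 6.50% fell past 2-fold, against 22.6% and 32.6% at 50 to 200 kb. Among regions of intermediate width (the middle 50%), both shares over starts were 14.0%, against 35.7% and 23.4% at 50 to 200 kb. The median log2 fold change over starts was -0.25, but its sign depended on scaling: it was 0.03 when libraries were scaled on gene starts alone, which moved all regions up by a median of 0.28. A small fall at a gene start is therefore relative to the scaling, and changes at starts are read below against these values.

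**Figure D2:**
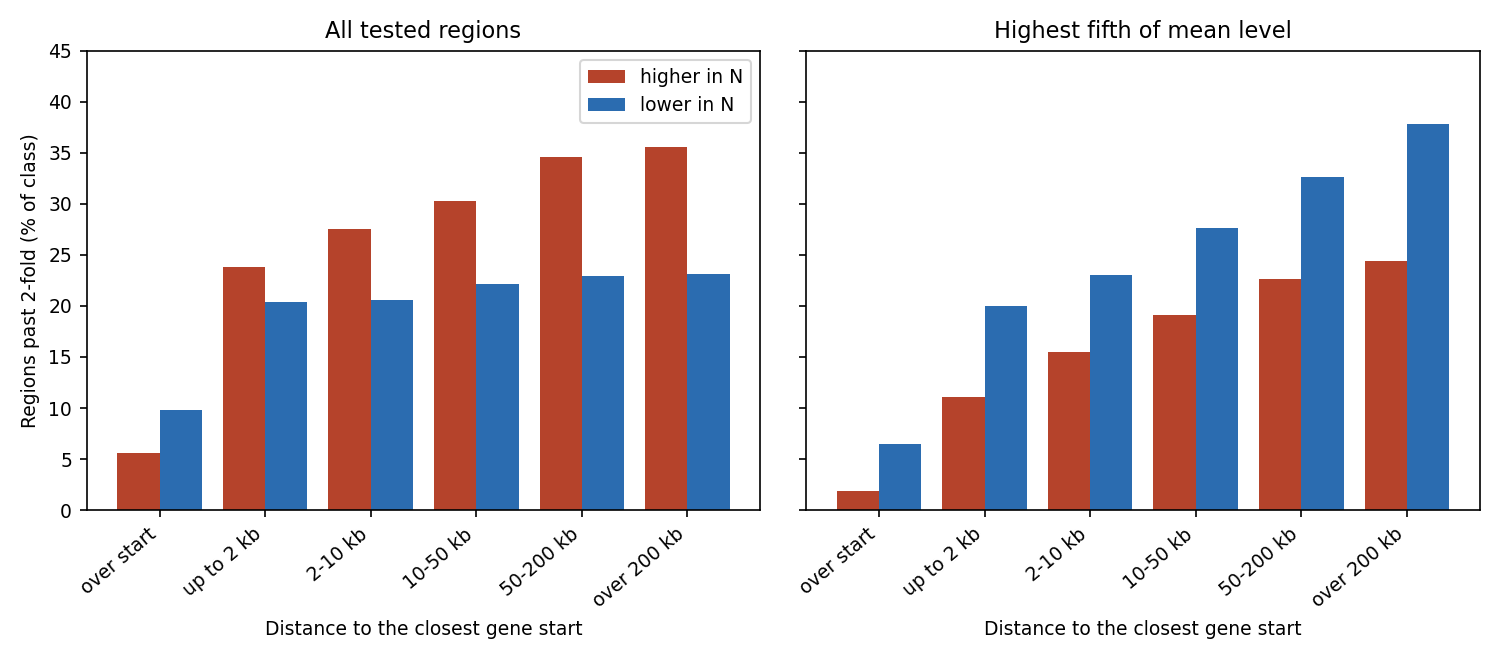
Percent of tested regions past 2-fold, higher (red) or lower (blue) in neurons, by distance to the closest gene start, for all regions (left) and for the 39646 regions of highest mean level (right). Bars over starts are the lowest in both panels, 5.61% and 9.80% on the left and 1.87% and 6.50% on the right.

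Genes of radial glia lost accessibility in neurons, both at their starts and around them. Of 25 genes on this list, 23 had a region over the start. Of these starts 21 fell, 13 of them past 2-fold, and none rose, where 42.9% of all protein-coding starts fell and 6.38% rose. With scaling on gene starts 19 fell and 1 rose, where 23.2% of all protein-coding starts fell and 20.8% rose. Among regions within 50 kb of a member, 88 of 142 fell and 25 rose, with a median log2 fold change of -1.10.

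The start of HES1, a Notch effector that represses proneural genes (chr3:192197419-192197859), had 25 and 25.2 CPM in aRG and 2.73 and 2.47 in N, a log2 fold change of -3.26 ± 0.25 (adjusted p = 4.9e-07). FABP7, a lipid-binding protein of radial glia, fell at its start from 82.1 and 78.8 CPM to 12.5 and 11.0 (-2.77 ± 0.18, adjusted p = 1.7e-07). VIM, the intermediate filament vimentin, fell from 129 and 116 CPM to 36.8 and 32.7 (-1.82 ± 0.12). In all of these the aRG libraries lay above both N libraries. FAM107A and HOPX, genes known for basal radial glia, fell at their starts as well, with log2 fold changes of -3.18 and -1.57. A region 40.8 kb from PTPRZ1, a receptor phosphatase of radial glia, fell from 50.8 and 46.5 CPM to 2.2 and 2.83 (chr7:118853104-118854644, -4.28 ± 0.26). Within 50 kb of PTPRZ1, however, 6 regions rose and 2 fell past 2-fold.

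Not every radial glia start closed. LHX2, a factor that patterns the cortex, had 36.6 and 35.3 CPM in aRG and 36.1 and 34.3 in N at its start (adjusted p = 0.81, but 0.039 and higher in N with gene-start scaling). ID4, an inhibitor of bHLH factors, had 59.1 and 54.2 against 49.8 and 49.8 (adjusted p = 0.11). Around ID4, however, 24 of the 38 regions nearest to it among coding genes, within 200 kb, fell past 2-fold and 2 rose. For LHX2 the same counts were 9 and 7 of 30.

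Signalling pathways that act in progenitors were compared next, and their lists did not all fall. Near YAP and TEAD genes, which relay mechanical and growth signals, 12 of 35 regions rose and 12 fell, with 11 higher and 6 lower past 2-fold. This was near the shares of all tested regions, 37.2% and 31.7%, and 28.3% and 20.9% past 2-fold. Notch receptors NOTCH1 and NOTCH3 fell at their starts, with log2 fold changes of -0.90 and -2.21 (adjusted p = 1.8e-05 and 8.4e-07), and NOTCH3 went from 37.6 and 38.1 CPM to 8.94 and 7.38. Among ligands the directions differed. JAG1 fell from 53.9 and 59.3 CPM to 28.9 and 27.8 (adjusted p = 9.2e-06), while DLL3, a ligand-like inhibitor of Notch, rose from 9.32 and 8.78 to 16.8 and 15.3 (0.83 ± 0.17, adjusted p = 7.2e-04). JAG2 also rose (0.63 ± 0.17, adjusted p = 0.0050). Of 18 Notch pathway starts 12 fell and 2 rose, where 42.9% of all protein-coding starts fell and 6.38% rose. With gene-start scaling 10 fell and 5 rose, where 23.2% of all protein-coding starts fell and 20.8% rose. Of the 83 regions within 50 kb 36 fell and 19 rose, with a median of -0.21 that turned to 0.07 with gene-start scaling and 0.04 with loess offsets.

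Growth factor pathways fell more broadly. For FGF signalling, 63 of 104 regions fell and 18 rose (median -0.84), and for BMP and TGF-beta signalling 81 of 125 fell and 13 rose (median -1.02). The starts of the receptors FGFR1 and FGFR2 fell, the former from 52.6 and 50.4 CPM to 21.1 and 19.9 and the latter from 83.4 and 82.9 to 30.9 and 27.7. A region 49.2 kb from FGFR2 (chr10:117441431-117442449) went from 20.1 and 13.5 CPM to 0.559 and 0.432. A region 6.30 kb from SMAD1, a BMP signal transducer, went from 32.7 and 23.2 CPM to 0.435 and 0.786 (chr4:143528232-143529159, -5.54 ± 0.32), so every aRG library was far above every N library. For Wnt signalling, 77 of 149 regions fell and 28 rose (median -0.58). TCF7L1, a repressor of Wnt targets, fell at its start from 89.5 and 75.8 CPM to 19.1 and 14.4 (-2.30 ± 0.13, adjusted p = 7.8e-08).

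Genes for contact with the matrix and the ventricular surface followed. Of 86 regions near matrix and integrin genes 52 fell and 19 rose (median -1.16). A region 3.63 kb from ITGB5, an integrin chain, went from 51.7 and 49.5 CPM to 1.40 and 1.02 (chr3:123038027-123039125, -5.37 ± 0.25). LAMB1, a laminin chain, ran the other way at its start, from 13.4 and 13.1 CPM to 28.3 and 22.6 (0.94 ± 0.18, adjusted p = 4.5e-04). Near apical junction and polarity genes 47 of 109 regions fell and 31 rose (median -0.37). Past 2-fold 15 were higher and 32 lower, and with gene-start scaling 24 and 27 (median -0.091). CRB2, an apical polarity protein, fell at its start from 12.9 and 11.9 CPM to 1.46 and 0.864, and SHROOM3, which constricts the apical surface, fell from 47.9 and 43.7 to 7.73 and 10.3.

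Cell cycle genes changed less in size. Of 26 starts 19 fell, 3 of them past 2-fold, and none rose, where 42.9% of all protein-coding starts fell. With gene-start scaling, however, 10 fell, where 23.2% of all protein-coding starts fell. CCND1, which drives entry into the cycle, was the strongest, from 21.8 and 20.3 CPM to 4.66 and 3.46 (-2.37 ± 0.21, adjusted p = 1.2e-06). MKI67, a proliferation marker, went from 19.0 and 23.5 CPM to 14.2 and 12.8 (-0.65 ± 0.18, adjusted p = 0.0055, and 0.077 with gene-start scaling). The median over 91 regions was -0.33 and became 0.03 with loess offsets. Ribosomal protein starts were close in both groups: of 23, 1 fell and none rose, and with gene-start scaling 4 rose and none fell, against 20.8% of all protein-coding starts higher and 23.2% lower.

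Proneural and newborn neuron factors gained accessibility, but not all of them. Of 187 regions within 50 kb, 88 rose and 43 fell (median 0.65). Of 15 starts 8 rose and 2 fell, where 6.38% of all protein-coding starts rose and 42.9% fell. MYT1L, a neuronal repressor of other fates, rose at its start (chr2A:2299060-2300621) from 6.11 and 6.76 CPM to 46.5 and 47.0 (2.86 ± 0.13, adjusted p = 4.1e-08). NEUROD6 rose from 12.3 and 8.44 CPM to 31.3 and 31.7 (1.60 ± 0.17). NEUROG1, which starts neurogenesis in progenitors, fell from 34.4 and 29.5 CPM to 12.8 and 7.74 (-1.63 ± 0.20, adjusted p = 1.1e-05). EOMES, the factor of intermediate progenitors, had 40.1 and 38.5 CPM in aRG and 37.4 and 25.7 in N at its start (adjusted p = 0.075, and 0.83 with gene-start scaling). Its N libraries both lay below the aRG ones, but the groups did not overlap in 84.5% of all tested regions.

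The 2 strongest risen regions near these factors, 1 per gene and with a mean of at least 1 CPM, lay away from starts. A region 39.6 kb from ST18, a zinc finger factor related to MYT1, rose from 0.313 and 0.420 CPM to 15.4 and 11.0 (chr8:50306227-50307292, 5.16 ± 0.38, adjusted p = 4.0e-07). One 23.2 kb from EBF2, a factor of early neurons, rose from 0.353 and 0.378 to 12.2 and 9.43 (chr8:25950270-25951112, 4.87 ± 0.50), while the EBF2 start had 28.9 and 28.9 CPM in aRG and 26.9 and 28.9 in N.

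Synapse and ion channel genes mostly rose. Of 174 regions 96 rose and 34 fell (median 0.98), and of 25 starts 16 rose and 4 fell, where 6.38% of all protein-coding starts rose. With gene-start scaling 19 rose and 2 fell, where 20.8% of all protein-coding starts rose and 23.2% fell. GABBR2, a GABA-B receptor subunit, rose at its start (chr9:70879546-70880629) from 0.901 and 1.76 CPM to 11.1 and 14.8 (3.28 ± 0.36, adjusted p = 6.4e-06), and all 8 of its regions rose past 2-fold. GRIN1, the shared NMDA receptor subunit, rose from 3.06 and 3.78 CPM to 29.7 and 23.1 (2.95 ± 0.28). The N libraries lay above the aRG libraries at both starts.

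Of 213 regions near axon growth and guidance genes 83 rose and 73 fell, near the shares of all tested regions, 37.2% and 31.7%. The median was 0.10, and -0.0018 with RLE size factors. Of 23 starts 5 rose and 9 fell, where 6.38% of all protein-coding starts rose and 42.9% fell. With gene-start scaling 10 rose and 8 fell, where 20.8% of all protein-coding starts rose and 23.2% fell. STMN2, a microtubule regulator of growing axons, rose at its start from 12.5 and 14.1 CPM to 46.2 and 48.4 (1.84 ± 0.13). TUBB3, a tubulin used as a neuron marker, had 35.8 and 37.5 CPM in aRG and 37.3 and 36.1 in N, and its groups overlapped (adjusted p = 1.0, but 0.025 and higher in N with gene-start scaling). A region 11.4 kb from ROBO2, a guidance receptor, fell from 41.3 and 27.9 CPM to 1.02 and 0.864 (chr3:77580249-77581437, -5.18 ± 0.31).

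**Figure D3:**
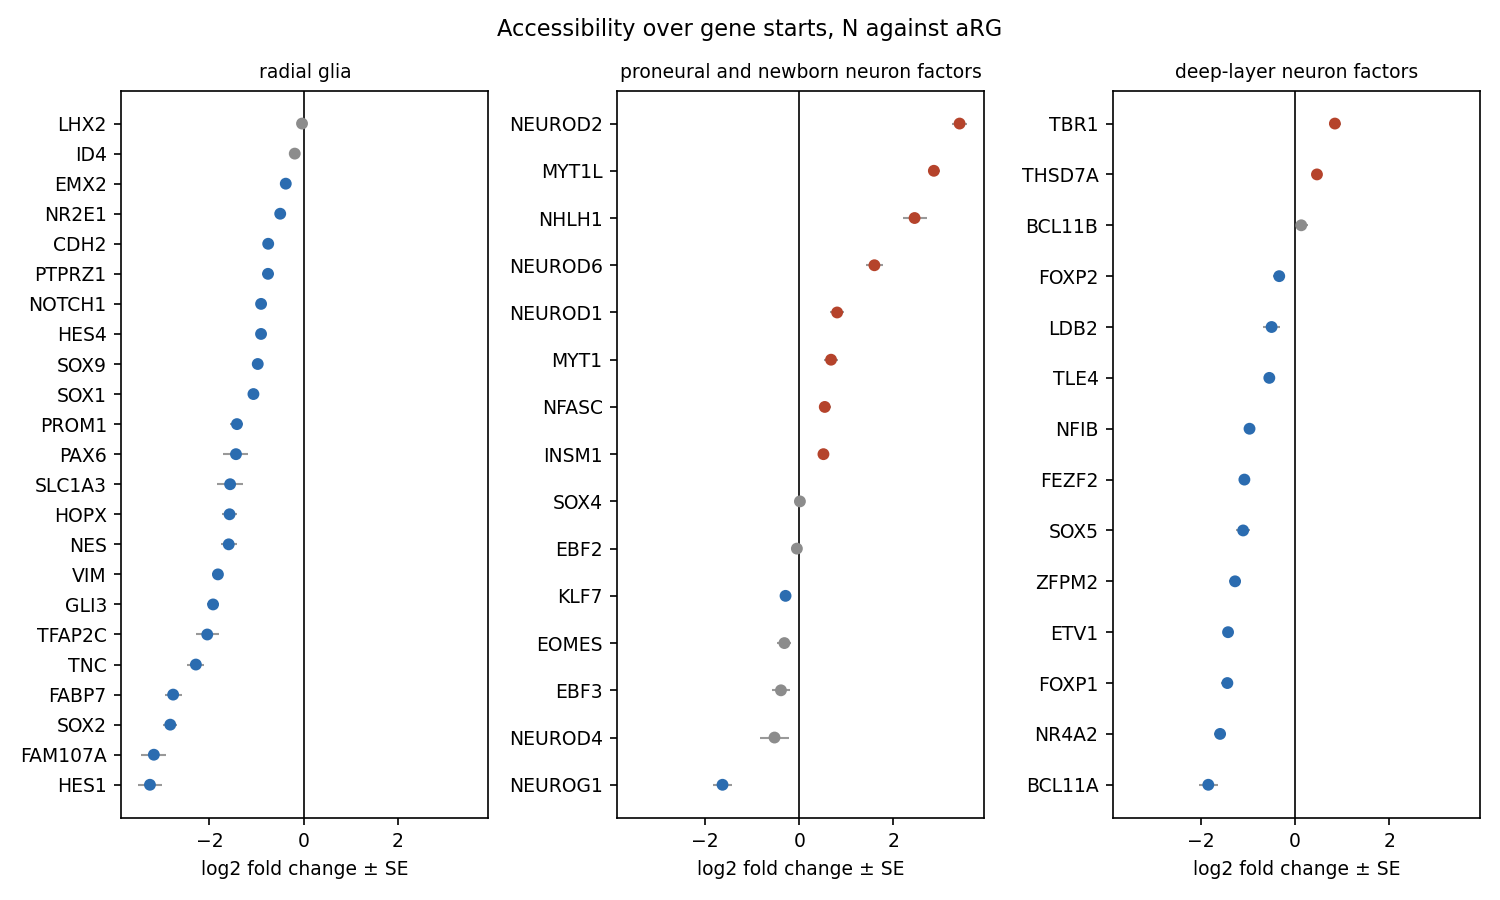
Log2 fold change (N against aRG, horizontal axis, with SE) of the region over the start of each gene, for the radial glia, proneural and deep-layer lists (3 panels). Red points rose and blue points fell at an adjusted p under 0.05, and grey points did not pass; radial glia starts lie at or left of 0, though LHX2 and ID4 lie right of 0 with gene-start scaling, and deep-layer starts mostly lie left of 0, with TBR1 at 0.85 farthest right among them, while proneural starts run from NEUROG1 at -1.63 to NEUROD2 at 3.41.

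Most starts of factors that specify cortical layers did not rise in neurons. Of 14 deep-layer starts 11 fell and 2 rose (9 and 3 with gene-start scaling). TBR1, a factor of early deep-layer neurons, rose from 27.1 and 22.2 CPM to 45.4 and 43.3 (0.85 ± 0.13, adjusted p = 7.7e-05). FEZF2, which specifies subcerebral projection neurons and is also active in early progenitors, fell from 79.8 and 79.8 to 38.3 and 37.4 (-1.08 ± 0.09, adjusted p = 7.8e-07). BCL11A fell from 26.9 and 24.2 to 7.36 and 6.87 (-1.84 ± 0.20). Of 9 upper-layer starts 6 fell and none rose, and 3 fell with gene-start scaling, none of them past 2-fold. Over all protein-coding starts 42.9% fell and 6.38% rose, and with gene-start scaling 23.2% fell and 20.8% rose.

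Around the same genes, regions went both ways. Near FEZF2, 80 regions had it as the nearest coding gene within 200 kb, of which 29 rose and 11 fell past 2-fold. One of these (chr3:62505924-62507526) rose from 0.862 and 1.18 CPM to 21.4 and 26.3 (4.55 ± 0.31, adjusted p = 2.5e-07), while the gene's start fell. Over all deep-layer genes the median was -0.40 for the 125 regions within 50 kb and 0.13 for the 591 regions assigned by nearest coding gene within 200 kb, so the direction of this list depended on how regions were assigned. For 96 upper-layer regions 29 rose and 37 fell, with a median of -0.14 that was 0.13 with gene-start scaling.

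Across the radial glia, proneural and layer lists, 31 of the 71 genes with at least 2 regions within 50 kb had regions past 2-fold in both directions (43.7%). Over all protein-coding genes with as many regions the share was 21.5%, but these had a median of 3 regions a gene against 8 on the lists. Among genes with at least 5 regions the shares were closer, 56% on the lists and 46.6% over all. LMO4, a LIM-domain cofactor of upper layers, had 9 fallen regions and 1 risen. A region 16.4 kb from it fell from 55.9 and 49.6 CPM to 1.09 and 1.34 (chr1:86188411-86189721, -5.45 ± 0.30), and one 43.9 kb from it rose from 0.392 and 0.714 to 9.0 and 5.70 (3.73 ± 0.48). PTPRZ1 had 6 risen regions and 2 fallen, and its region 11.8 kb away rose from 0.744 and 0.840 CPM to 11.1 and 20.9 (chr7:118824077-118825742, 4.33 ± 0.38). GLI3, which mediates hedgehog signalling in progenitors, had 5 fallen and 2 risen, and its region 4.11 kb away fell from 31.2 and 37.8 CPM to 1.96 and 1.96 (-4.13 ± 0.35). These genes were therefore not described by the direction of any single region.

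**Figure D4:**
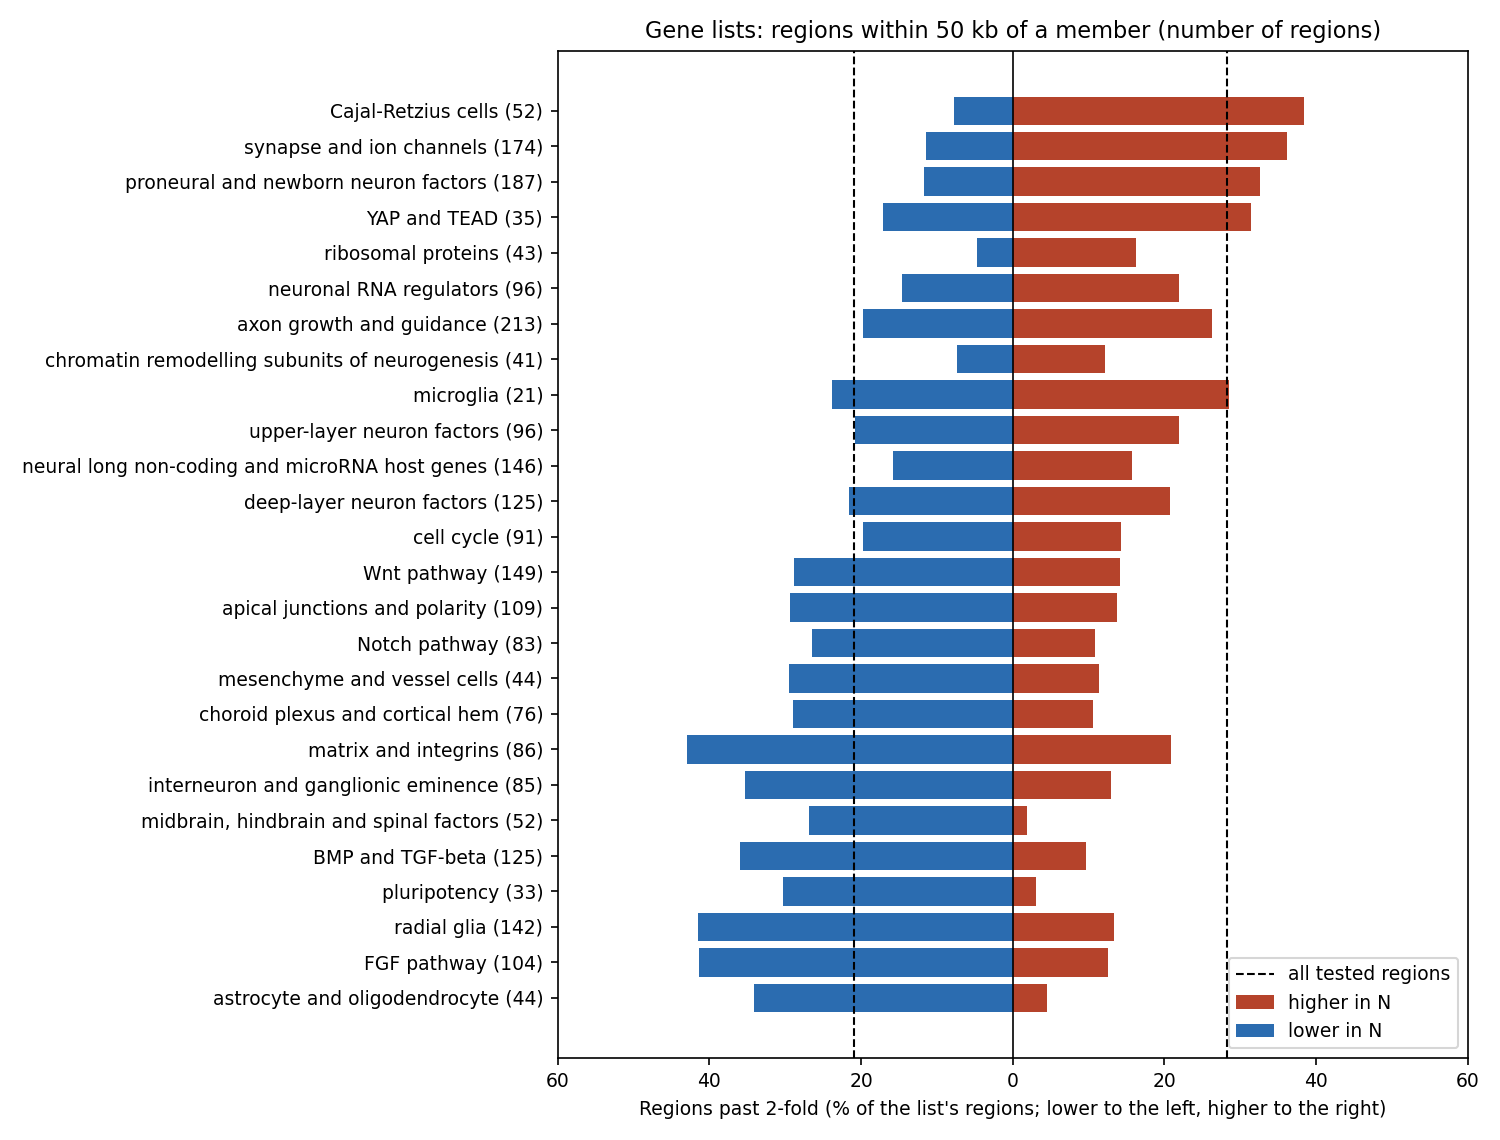
Percent of each list's regions within 50 kb of a member that were past 2-fold, higher in neurons to the right (red) and lower to the left (blue), with the number of regions in brackets. Dashed lines mark all tested regions, 28.3% higher and 20.9% lower. The Cajal-Retzius list extends farthest past the right line, followed by the synapse and proneural lists. YAP and TEAD and microglia lists also pass it. Matrix, radial glia, FGF, and BMP and TGF-beta lists extend farthest past the left line. Others pass it too, among them interneuron, astrocyte, pluripotency, mesenchyme, Wnt, apical and choroid lists.

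Regulators of RNA and chromatin that are known to switch between progenitors and neurons were compared at their starts. Of 17 starts of RNA regulators 3 rose and 5 fell, and of 13 starts of remodelling subunits 2 rose and 6 fell. Over all protein-coding starts 6.38% rose and 42.9% fell. With gene-start scaling 5 rose and 2 fell on each list, where 20.8% of all protein-coding starts rose and 23.2% fell. SRRM4, which drives neuronal splicing, rose from 13.6 and 14.2 CPM to 43.4 and 40.4 (1.59 ± 0.12, adjusted p = 3.9e-07). REST, a repressor of neuronal genes, fell from 60 and 58.4 CPM to 29.0 and 31.3 (-0.97 ± 0.11, adjusted p = 9.0e-06). In the BAF remodelling complex, ACTL6B, the neuronal subunit, rose from 10.5 and 9.91 CPM to 19.8 and 17.7 (0.88 ± 0.18). Its progenitor counterpart ACTL6A went from 67.3 and 61.2 to 50.7 and 46.4 (-0.40 ± 0.09, adjusted p = 0.0013), a fall that did not pass with gene-start scaling (adjusted p = 0.17). Over the whole lists the medians were near that of all regions, 0.13 for 96 regions of RNA regulators and 0.02 for 41 of remodelling subunits, and both turned negative without N replicate 2 (-0.042 and -0.078).

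Most regions were closest to a gene that is not protein-coding or had no match in the table of names. These rose more often: 30.7% of 139079 were higher past 2-fold and 22.1% lower, against 22.9% and 17.9% of 56017 regions closest to a coding gene. Away from starts the gap was smaller, with 31.4% higher for genes with clone names, 32.9% for LINC genes and 27.7% for coding genes. Counts summed per closest gene rose for 13156 of 40287 genes (32.7%) and fell for 11329 (28.1%), 60.8% in all. Among coding genes 23.3% rose and 27.6% fell, and among the others 37.7% and 28.4%.

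The neuronal microRNA genes moved in both directions. The start regions of MIR124-1 and MIR124-3, genes of the microRNA most typical of neurons, rose by 0.51 ± 0.14 and 1.04 ± 0.20 on the log2 scale, the latter from 13.2 and 19.7 CPM to 31.7 and 35.8. The start of MIR124-2HG, the host of another copy, fell from 38.5 and 37.8 to 20 and 25.1 (-0.76 ± 0.16, adjusted p = 9.1e-04). Summed over regions within 50 kb, MIR9-1 fell from 273 and 269 CPM to 162 and 147 (-0.81 ± 0.10), and MIR9-2 from 243 and 209 to 139 and 107 (-0.88 ± 0.13). MIR9 acts in neural progenitors and in neurons. A region 20.8 kb from MIR9-3 fell from 66.9 and 55.2 CPM to 4.41 and 3.10 (chr15:67947870-67949600, -4.01 ± 0.23).

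Other neural non-coding genes also differed. Summed over its regions, LINC00599, the host transcript of MIR124-1, rose from 20.4 and 19.2 CPM to 57.1 and 55.7 (adjusted p = 1.1e-05), and EMX2OS, antisense to EMX2, fell from 197 and 183 to 60 and 42.9 (-1.88 ± 0.15). Among non-coding sums with a mean of at least 2 CPM, OR13I1P, a pseudogene, rose by the most, from 0.401 and 0.238 CPM to 22.8 and 17.5 in 1 region (5.94 ± 0.55, adjusted p = 3.1e-05). AC117503.1 fell by the most, from 28.0 and 23.9 CPM to 0.396 and 0.343 (-6.10 ± 0.37). These names say only which gene start lay closest. ATAC-seq does not mark strand, so a gene and its antisense partner cannot be told apart.

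Some regions were close to absent in 1 group. Among regions with a mean of at least 2 CPM the strongest fall was 35.2 kb from METAP1D, a mitochondrial aminopeptidase gene (chr2B:58544706-58545429), from 42.8 and 38.8 CPM to 0.186 and 0.432 (-7.08 ± 0.35, adjusted p = 4.3e-08). A region 30.1 kb from THSD7B fell from 37.9 and 28.5 CPM to 0.404 and 0.275 (chr2B:23308178-23308937), and one 34.6 kb from TTLL4 from 23.6 and 26.5 to 0.248 and 0.275. Among risen regions, one 0.153 kb from AC025521.1 and 8.19 kb from the start of PPM1E, a protein phosphatase gene, went from 0.196 and 0.168 to 15 and 19.1 (chr17:51989401-51990401, 6.51 ± 0.38). In 20 risen and 5 fallen regions past 2-fold the lower group had 0 counts in both libraries.

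Regions with a chimpanzee identifier only rose and fell about equally often. Of 2096 tested, 465 rose (22.2%) and 470 fell (22.4%) past 2-fold, against 28.7% and 21.1% of regions with identifiers in all 3 species. One (chr10:119597354-119598374) had 1 and 2 counts in the aRG libraries and 270 and 245 in the N libraries, a ratio of 147 after scaling (95% exact interval 50.0 to 715, counting error only). Another (chr16:30691177-30692708) fell from 40.4 and 23.1 CPM to 0.342 and 0.275 (-6.65 ± 0.42). A further one (chr6:66890619-66891053) had 0 counts in both aRG libraries and 2.33 and 2.47 CPM in N, at least 39.4-fold higher when the floor is 3 counts over the group. These regions have no closest gene in the table.

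Change was concentrated around some genes when regions were assigned to the nearest coding start within 200 kb. Over all tested regions 28.3% were higher and 20.9% lower past 2-fold. GPR12, an orphan receptor gene of the brain, had 36 of 50 regions higher past 2-fold and none lower. SRRM4 had 27 of 40 and none lower, and SYN3, a synaptic vesicle gene, 26 of 38 and none lower. Other genes with as many risen regions went both ways. FEZF2 had 29 of 80 higher and 11 lower, and CELF2 27 of 54 higher and 12 lower. In the other direction LRIG1, a feedback inhibitor of growth factor receptors, had 35 of 59 lower and 4 higher, SOX2 33 of 55 lower and 3 higher, and SOX1 28 of 46 lower and 3 higher. The region 76.3 kb from the placed start of LRIG1 with the strongest fall went from 40.3 and 32.8 CPM to 0.435 and 0.393 (chr3:66767571-66768713, -6.44 ± 0.34). These genes were ranked on the values themselves, so their counts are a description.

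The regions around a start were compared by how the start itself changed. Of 195 coding genes whose start rose past 2-fold, 166 had other regions. Of these 692 regions 44.1% rose and 10.4% fell past 2-fold. Of 734 genes whose start fell, 587 had other regions, and of these 2484 regions 19.1% rose and 30.5% fell. For genes with neither, 26.7% of 21619 other regions rose and 19.4% fell. The start and its surroundings come from the same libraries, and no test was made of this relation.

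Basal intermediate progenitors (bIP) lay between the groups, and basal radial glia (bRG) near aRG. On a scale where the aRG mean is 0 and the N mean is 1 in log2 CPM, risen regions had a median of 0.504 in bIP 1 and 0.380 in bIP 2. Fallen regions had 0.604 and 0.470. In bRG the medians were 0.09 and 0.10 for risen regions, and 0.016 and 0.046 for fallen ones. The bIP libraries differed from each other by more than the risen and fallen sets did, and in both of them fallen regions were farther along than risen ones. At the NEUROD2 start bIP had 31.8 and 29.8 CPM, closer to the 39.1 and 45.6 of N than to aRG, and at the SOX2 start 28.0 and 32.4 CPM, between both groups. The ST18 region described above had 2.54 and 1.73 CPM in bIP, well below N.

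**Figure D5:**
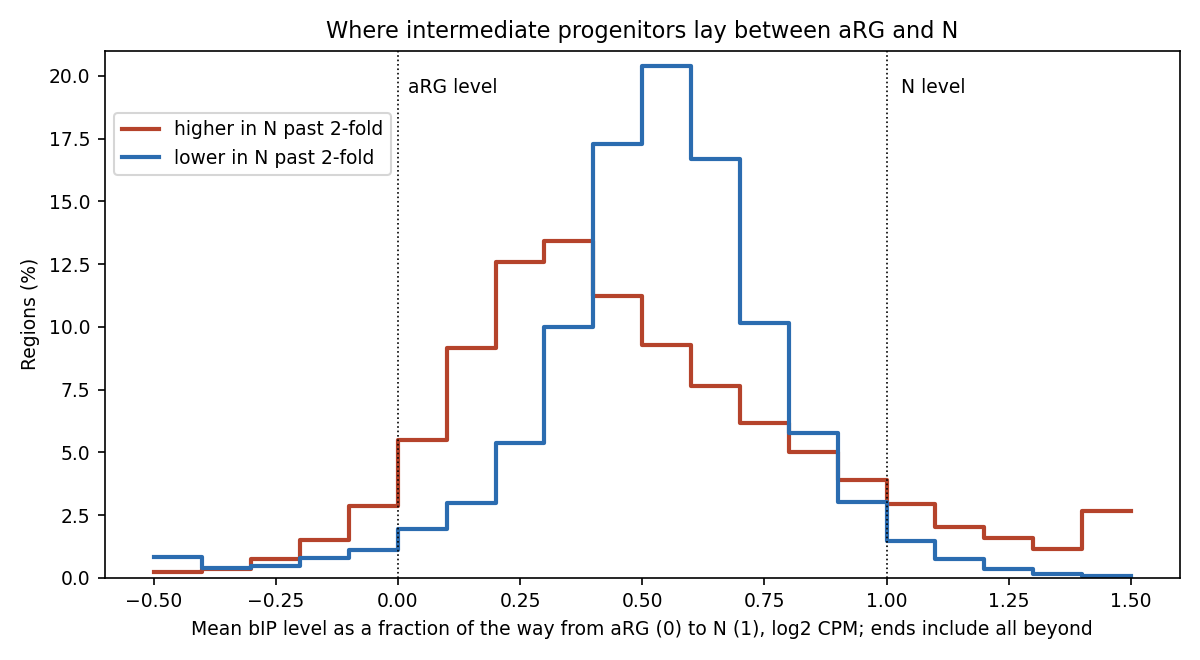
Percent of regions (vertical axis) by the position of their mean bIP level between aRG (0) and N (1) in log2 CPM, for regions higher (red) and lower (blue) in neurons past 2-fold. Fallen regions peak between 0.5 and 0.6, where 20.4% of them lie, and risen regions between 0.3 and 0.4, with 13.4%, and the outermost bins include all regions beyond.

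Markers of other cell types were higher in aRG than in N on most of these lists. For all of them the background is that 37.2% of tested regions rose and 31.7% fell. Of 85 regions near interneuron and ganglionic eminence genes 50 fell and 15 rose, and their summed level was 766 to 873 CPM in aRG and 333 to 409 in N. DLX1, an interneuron factor, fell at its start from 30.6 and 29.1 CPM to 9.38 and 8.88 (-1.71 ± 0.16). Near choroid plexus and cortical hem genes 35 of 76 fell and 12 rose, with sums of 359 to 378 CPM in aRG and 225 to 238 in N. Near mesenchyme and vessel genes 19 of 44 fell and 8 rose (295 to 353 CPM against 213 to 237). With gene-start scaling 5 of these were higher and 7 lower past 2-fold (median -0.15). By nearest coding gene within 200 kb, 52 of 190 mesenchyme and vessel regions were higher and 53 lower past 2-fold (median -0.07). Near astrocyte and oligodendrocyte genes 21 of 44 fell and 6 rose (301 to 346 against 148 to 181).

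For midbrain, hindbrain and spinal factors 25 of 52 regions fell and 2 rose (329 to 361 CPM against 165 to 195), and for pluripotency genes 21 of 33 fell and 1 rose (227 to 241 against 115 to 125). The regions of Cajal-Retzius genes, which mark an early neuron type, went the other way, with 28 of 52 higher and 10 lower and sums of 182 to 196 CPM in aRG and 289 to 377 in N. Within 10 kb 4 of 19 were higher and 5 lower, and EBF2, which is also on the proneural list, supplied 17 of the 52 regions and 9 of the risen ones. Of 7 Cajal-Retzius starts 2 rose and 1 fell, where 6.38% of all protein-coding starts rose and 42.9% fell. With gene-start scaling 4 rose and none fell, where 20.8% of all protein-coding starts rose and 23.2% fell. RELN, the defining gene of Cajal-Retzius cells, had 25.3 and 26.6 CPM in aRG and 34.5 and 26.4 in N at its start. Its groups overlapped (adjusted p = 0.19, and 0.0095 with gene-start scaling). Of 21 regions near microglia genes 10 rose and 7 fell, with sums of 73.7 to 94.8 CPM in aRG and 57.2 to 63.6 in N, and none of the 11 genes had a region over its start. Regions within 50 kb were found for 19 of 20 interneuron, 16 of 16 choroid plexus and hem, 15 of 16 mesenchyme, 14 of 15 astrocyte and oligodendrocyte, 16 of 20 midbrain and hindbrain, 12 of 12 pluripotency, 8 of 10 Cajal-Retzius and 7 of 11 microglia genes. The part of other cell types in the differences was not tested.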

How the data were processed

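Bulk ATAC-seq of sorted cells was analysed from the authors' deposited table of whole-number read counts per region, unscaled per the file headers, with closest gene and distance. Per the submitters' processing notes the tools include bcl2fastq 2.20.0 and MACS2 and the builds panTro6 and hg38. The aligner is not stated there, nor is the source of the closest genes. The authors' deposited peak lists gave intervals and a −log10 q-value per peak, used for overlap only. Distances are the authors', without sign. In human coordinates, 98.2% of 169973 regions pointed to 1 position per gene, so they were read as distances to gene starts and may differ in chimpanzee. Coordinates are panTro6, counted from 1.

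After removal of 6725 rows without a chimpanzee identifier and 7 repeats, all 8 libraries entered 1 edgeR 4.0.16 fit (R 4.3.3, TMM, filterByExpr, robust quasi-likelihood, Benjamini-Hochberg over all 198227 regions tested), with 4 residual degrees of freedom, 8.62 prior ones and a biological coefficient of variation of 0.216. With 2 libraries a group, an exact permutation test could not give a two-sided p below 0.333. The filter removed 13121 regions. Past 2-fold used edgeR's test against a 2-fold threshold. CPM are counts divided by TMM-scaled library totals. Gene sums add the regions at most 50 kb from their closest gene. A start region is the region at distance 0 with the highest level. Alternatives were RLE size factors, library totals, TMM factors from regions over gene starts (gene-start scaling), loess offsets that follow mean level, other low-count filters, the aRG and N libraries alone, a replicate block, leaving out each library, and DESeq2 1.42.0. The edgeR steps were run on simulated data in which few regions differed, equally in both directions. That run cannot test the scaling here, where 69% of regions differed. Coding gene starts were also placed from the deposited distances (12906 placed, 1350 not), an assignment added after the data were seen, as were the counts by nearest coding gene and the comparison of start regions with their surroundings.

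Named regions are those of SOX2 and NEUROD2 within 50 kb, the 10 strongest each way, 1 per closest gene, with a mean of at least 2 CPM, the strongest of each list, genes with both directions, chimpanzee-only regions and non-coding sums. Start regions of list genes were picked as examples after their values were seen. The members and the 26 lists of 524 genes were chosen with earlier results of these data known. Exact 95% intervals and the floor of 3 counts reflect counting error alone. No sequence was printed and motif content was not analysed here. Some genes named by these rules are not reported here.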

Additional observations from a re-analysis of the deposited data

How the results depend on the processing

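Counts of regions higher or lower in neurons stayed within 1.5 times under the alternatives tried, except that testing against a 4-fold threshold left 30737 higher and 19133 lower. The share of higher among regions past 2-fold ranged from 50.5% (loess offsets) to 64.1% (gene-start scaling). Leaving out each aRG or N library in turn gave 64230 to 71552 higher and 54720 to 59465 lower regions, and 49190 to 55939 and 36874 to 40403 past 2-fold. DESeq2 called 62965 higher and 59538 lower. Of 136 named regions, 1 lost its call under some alternative, the SOX2 region at 1.97 kb, and 0 changed direction. Most of these were picked for large differences, so their calls say little about the other regions. The starts of MKI67 and ACTL6A, outside this set, did not pass with gene-start scaling. Over all tested regions, 109 were called in the other direction with loess offsets.

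The replicate numbers were not taken to pair the samples, since the labels name no shared batch and there are only 2 numbers. Deviations of same-numbered libraries correlated at 0.116 between aRG and N, and at 0.122 to 0.313 over the other pairs of populations. With the replicate block 77729 regions were higher and 67040 lower.

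Over gene starts, 14.0% were higher past 2-fold among regions of intermediate width, and among the brightest regions 1.87% were higher and 6.50% lower. At 50 to 200 kb 22.6% of the brightest were higher. Requiring overlap over at least 50% of the region left 3.50% of risen regions in the aRG peak list. The median over starts was 0.029 with gene-start scaling and 0.21 with loess offsets.

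List medians changed sign in these cases, and the cause was not tested. For chromatin remodelling subunits they were -0.064 within 10 kb and -0.084 with RLE size factors, and ranged from -0.078 to 0.045 with 1 library left out. By nearest coding start they were 0.13 for deep-layer factors, -0.28 for YAP and TEAD and 0.013 for ribosomal proteins. That assignment reached 1 of the 46 neural non-coding genes, with a median of 0.80 over 17 regions. Ribosomal proteins also had 0.055 with library totals, 0.21 with gene-start scaling and 0.40 with loess offsets, and -0.16 to 0.015 with 1 library left out. Gene-start scaling gave 0.13 for upper-layer factors and 0.069 for the Notch pathway. Loess offsets gave 0.043 for the Notch pathway, 0.028 for cell cycle and 0.068 for neural non-coding genes. RLE size factors gave -0.0018 for axon genes. With 1 library left out, YAP and TEAD ranged from -0.010 to 0.25 and neuronal RNA regulators from -0.042 to 0.20, negative without aRG replicate 1 and N replicate 2 respectively.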
